A study of Mus musculus with 28 samples.

Results

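Of 13128 genes with a symbol in the expression table of DC2 cells, 69 are heat shock proteins, J-domain cochaperones or their partners, and these are described here. They were taken by symbol: the Hspa, Hspb, Hspd, Hspe and Hsph families, the Dnaja, Dnajb and Dnajc families, Bag1 to Bag6, the heat shock factors, Stip1 and the Ahsa genes. Hspa5, Dnajb9, Dnajb11 and Dnajc3 of the endoplasmic reticulum were left out by name. A pair of the 69, Hsf2bp, which encodes a binding partner of HSF2, and Hspb11, which encodes an intraflagellar transport protein, match the symbol pattern without being a heat shock factor or a small heat shock protein. All 69 had values in all 28 libraries and passed the filter on low values.

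DC2 is an immortalized line of mouse epithelial cells from the distal caput of the epididymis. Confluent cultures on collagen in serum-containing medium received corticosterone at 500 ng/ml or vehicle alone (0.1% ethanol in both), and RNA was sequenced at 4 times. The corticosterone groups are day 3, at the end of treatment, and days 6 and 9, after 3 and 6 days of recovery, and the vehicle groups are days 3, 6 and 9 and the day 0 cultures collected before treatment. Each of the 7 groups has 4 libraries, all groups are the same line, and medium was replaced at days 3 and 6. The labels do not say that the 4 libraries of a group came from separate cultures, so the p-values measure the spread between libraries, which may be technical.

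Heat shock proteins are chaperones that bind unfolded protein. HSP70 proteins bind and release their clients in a cycle of ATP hydrolysis, which J-domain proteins start and the HSP110 and BAG proteins end by exchanging the nucleotide. In mitochondria, Hspa9 pulls imported proteins into the matrix and the Hspd1 and Hspe1 chaperonin folds them. After heat or other protein damage HSF1 binds heat shock elements, which are inverted repeats of the unit GAA, and raises transcription of the inducible members, and the glucocorticoid receptor is itself a client that HSP70 and HSP90 keep able to bind hormone.

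Promoter windows of 300 bases, from 250 before the start of transcription to 50 after it, were taken from RefSeq on GRCm38.p6 (mm10, the build in the submitters' processing notes) and matched 55 of the 69 genes, in 72 windows. The 14 genes without a window, among them Hspa8, Hspa9, Hsf1, Hsf4, Dnajc2, Dnajc5 and Dnajc11, were not searched. The run GAANNTTCNNGAA, a heat shock element of 3 units, was found on either strand in 8.33% of these 72 windows and in 0.608% of all 32544 windows, and the member genes were Dnajb6, Hspd1, Hspe1 and Hsph1. Its shorter parts were commoner, GAANNTTC in 20.8% of member windows and 7.89% of all windows, and TTCNNGAA in 11.1% and 8.55%, and every 3-unit match contains both of these parts. The relaxed glucocorticoid receptor palindrome GNACANNNTGTNC was in 0 of the 72 member windows and in 0.476% of all windows. At that share a set of 72 windows would often hold none, so this 0 shows no difference from all windows. The 3-unit matches fell in 4 of the 55 member genes. Those of Dnajb6 and of Hsph1 were each counted in overlapping windows of the same gene, and Hspd1 and Hspe1 share theirs. The member windows are thus not independent, and repeated sequences were removed only from the set of all windows. A match is a description of letters within these 300 bases and says nothing about other regions. The windows below belong to some of the genes with main results, Hspd1 and Hspe1 because they share 1 divergent promoter, Hsph1 because it moved with them during culture, and Hspa1a and Hspa1b because their windows differ at 4 of 300 bases. Each is written 5′ to 3′ on the gene's strand, and capitals mark the heat shock elements of 2 or more units.
Hspd1: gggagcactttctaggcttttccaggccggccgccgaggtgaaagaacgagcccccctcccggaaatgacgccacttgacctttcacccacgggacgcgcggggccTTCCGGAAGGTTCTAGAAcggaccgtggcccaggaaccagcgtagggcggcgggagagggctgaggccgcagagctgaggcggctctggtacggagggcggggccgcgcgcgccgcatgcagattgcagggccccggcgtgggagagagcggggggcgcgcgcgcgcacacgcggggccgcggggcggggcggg
Hspe1: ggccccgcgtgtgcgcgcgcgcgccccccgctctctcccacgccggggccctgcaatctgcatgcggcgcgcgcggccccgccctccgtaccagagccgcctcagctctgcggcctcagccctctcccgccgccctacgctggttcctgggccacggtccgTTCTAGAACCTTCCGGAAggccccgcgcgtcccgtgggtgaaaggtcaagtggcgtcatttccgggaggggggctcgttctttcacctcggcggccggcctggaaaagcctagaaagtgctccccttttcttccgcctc
Hsph1: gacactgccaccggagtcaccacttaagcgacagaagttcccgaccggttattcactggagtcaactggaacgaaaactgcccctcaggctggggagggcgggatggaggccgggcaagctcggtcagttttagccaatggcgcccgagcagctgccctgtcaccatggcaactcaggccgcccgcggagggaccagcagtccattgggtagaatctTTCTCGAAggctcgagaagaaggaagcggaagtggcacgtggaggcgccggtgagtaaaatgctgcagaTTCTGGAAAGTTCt
Hspa1a: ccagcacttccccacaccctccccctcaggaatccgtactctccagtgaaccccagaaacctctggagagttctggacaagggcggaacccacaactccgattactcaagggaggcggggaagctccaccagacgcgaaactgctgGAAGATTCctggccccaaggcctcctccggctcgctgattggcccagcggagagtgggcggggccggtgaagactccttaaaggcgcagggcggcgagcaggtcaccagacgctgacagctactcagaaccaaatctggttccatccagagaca
Hspa1b: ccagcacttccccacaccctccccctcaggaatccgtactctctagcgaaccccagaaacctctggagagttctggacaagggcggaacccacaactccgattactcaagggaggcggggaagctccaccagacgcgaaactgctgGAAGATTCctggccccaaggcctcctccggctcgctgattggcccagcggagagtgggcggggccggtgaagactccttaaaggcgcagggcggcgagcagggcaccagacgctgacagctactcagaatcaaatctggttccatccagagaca
The Hspd1 window lies at chr1:55087883-55088182 on the minus strand and the Hspe1 window at chr1:55087898-55088197 on the plus strand. They share 285 bases, so the same capitals appear in both on opposite strands, at bases 107 to 124 of the Hspd1 window and 162 to 179 of the Hspe1 window. Hsph1 is at chr5:149636287-149636586 on the minus strand, with elements between bases 218 and 299 of the window. Hspa1a is at chr17:34972107-34972406 and Hspa1b at chr17:34959189-34959488, both on the minus strand, each with 1 element of 2 units at bases 147 to 154.

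In the libraries, corticosterone day 3 replicate 4 stood apart. Its root mean square distance from the mean of its group mates was 0.447 log2 CPM over genes and 0.343 over members. Any other library reached at most 0.257 and 0.202. Both distances cover only genes or members with a mean of at least 1 log2 CPM. Counts of calls at day 3 are therefore also given without corticosterone day 3 replicate 4, a choice made after the data were seen. The hormone marker Fkbp5 averaged 9.23 ± 0.18 log2 CPM in corticosterone libraries and 6.18 ± 0.025 in vehicle libraries at day 3 (SD, n = 4 each). Pax2 and Pax8 were present at 6.07 to 7.34 log2 CPM as group means, and the epithelial markers Krt18 and Cldn4 at 3.71 to 5.42, while Epcam, Krt19 and Krt8 were at 2.31 or less in every group. Of the marker lists for mesenchyme and smooth muscle, leukocytes, endothelium and the male germ line, 5 of 7, 1 of 5, 2 of 4 and 3 of 6 genes had rows, and the defining genes Myh11, Des, Ptprc, Cdh5, Tek, Dazl, Prm1 and Tnp1 had none.
Of these lists, the 1 leukocyte row, Cd68, ran from 7.59 to 11.1 CPM in corticosterone libraries and from 27.6 to 28.8 CPM in vehicle libraries at day 3, and the 2 endothelial rows summed to 7.15 to 9.71 CPM in corticosterone libraries and 1.43 to 2.60 CPM in vehicle libraries. The 5 mesenchymal rows summed to 113 to 134 CPM in corticosterone libraries and 61.2 to 65.6 CPM in vehicle libraries at day 3. The rows did not move together. At day 3 Dcn averaged 6.48 log2 CPM with corticosterone and 3.72 with vehicle. Pdgfra (1.41 against -0.03) and Acta2 (-0.48 against -0.87) were also higher, while Pdgfrb (4.71 against 5.31) and Col1a1 (1.65 against 3.03) were lower. Each row had the same direction at day 6, where the sums overlapped, at 69.1 to 76.9 CPM with corticosterone and 69.4 to 73.8 CPM with vehicle. Cd68 stayed lower with corticosterone at day 6 (10.0 to 13.3 CPM, against 48.7 to 57.1 CPM with vehicle) and day 9 (44.9 to 49.9 CPM, against 87.1 to 108 CPM with vehicle). Their part in the results below was not tested.

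Corticosterone moved 39 of the 69 genes at day 3, 35 at day 6 and 22 at day 9, in both directions. Here a gene is called when its adjusted p (limma, Benjamini-Hochberg over all 13128 genes) is under 0.05. At day 3, 22 members were higher and 17 lower with corticosterone, that is 31.9% and 24.6% of the 69, where 23.3% and 25.6% of all genes were called higher and lower. Without corticosterone day 3 replicate 4 the counts were 15 higher and 19 lower, with 31 called the same way in both, and with only the 2 groups in the fit 13 were higher. At day 6, 18 were higher and 17 lower (22.9% and 24.3% of all genes). At day 9, 15 were higher and 7 lower (14.1% and 14.4% of all genes), and the count of lower members was 4 without any 1 of vehicle replicates 5 and 6 and corticosterone replicates 3 to 6. The median log2 fold change of the 69 was 0.01, 0.02 and 0.05 at days 3, 6 and 9, against -0.01, -0.00 and 0.00 over all genes. Calls in both directions were found on each day.

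**Figure D1:**
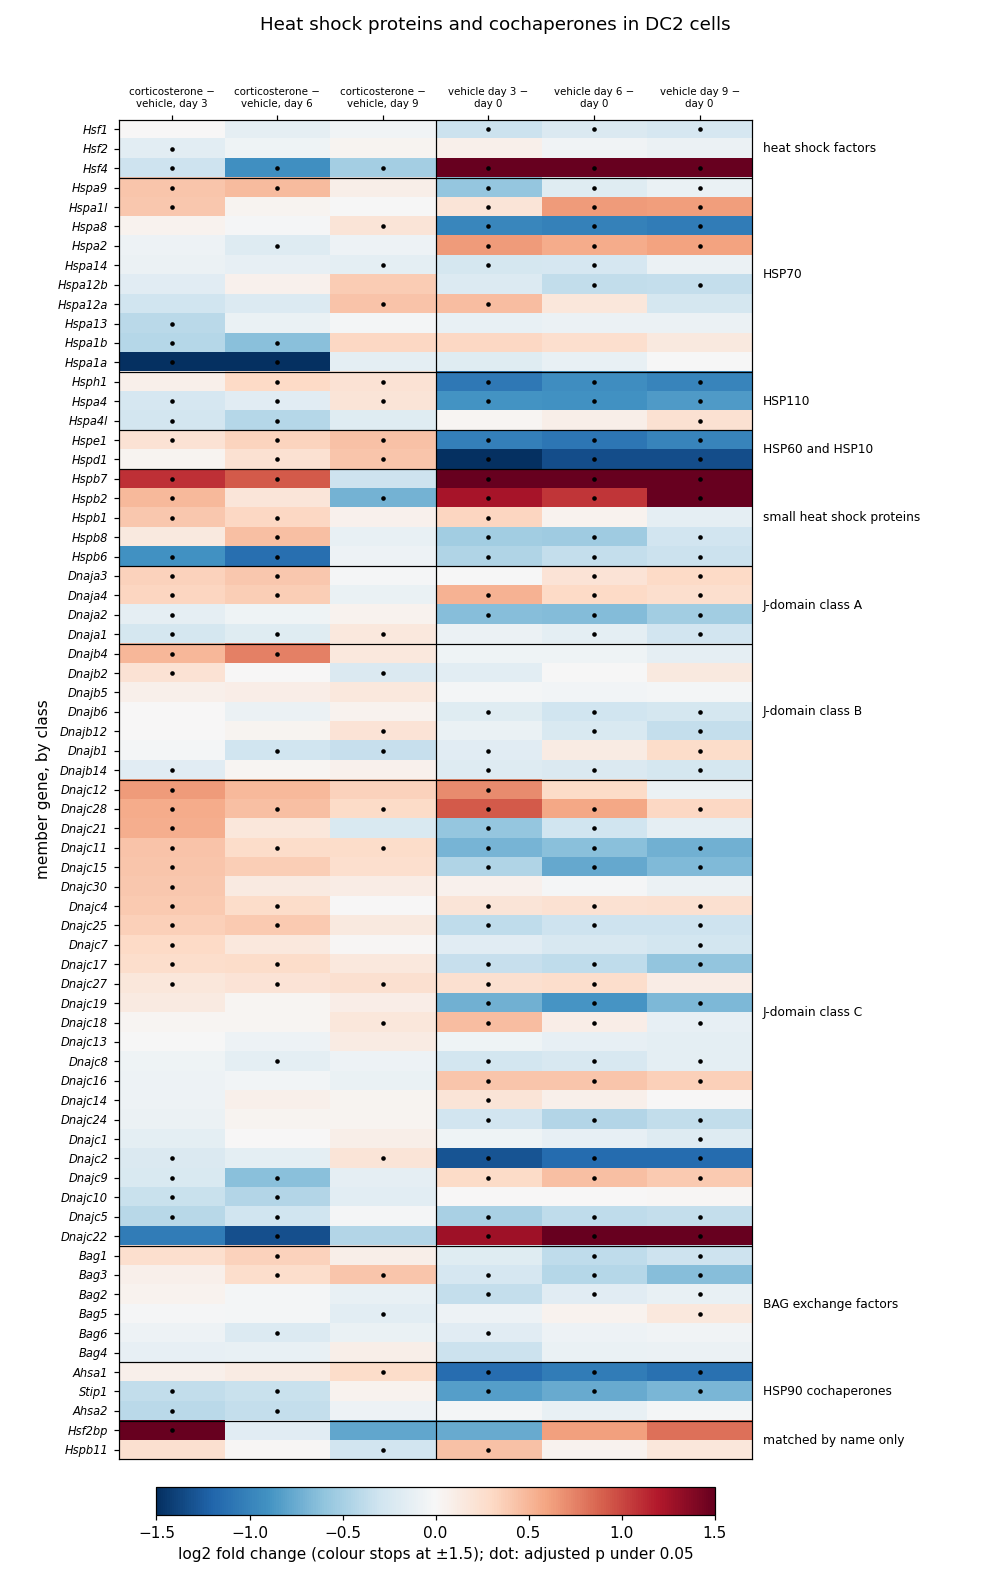
Log2 fold changes of the 69 genes, 1 row a gene and grouped by class, in 6 comparisons: corticosterone minus vehicle at days 3, 6 and 9 (left) and vehicle at days 3, 6 and 9 minus day 0 (right). Dots mark adjusted p under 0.05. In the left columns red and blue are mixed within most classes, and in the right columns Hspa8, the HSP110 genes Hsph1 and Hspa4, Hspd1, Hspe1, Dnajc2, Ahsa1 and Stip1 are among the deeper blue rows, as are Dnajc11 and Dnajc19.

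Over the 3 days, 12 of the 69 were called on no day: Bag2, Bag4, Dnajb5, Dnajb6, Dnajc1, Dnajc13, Dnajc14, Dnajc16, Dnajc19, Dnajc24, Hsf1 and Hspa12b. A block of 9 was higher at days 3 and 6 and not called at day 9 (Dnaja3, Dnaja4, Dnajb4, Dnajc4, Dnajc17, Dnajc25, Hspa9, Hspb1 and Hspb7). Another 9 were lower at days 3 and 6 and not called at day 9 (Ahsa2, Dnajc5, Dnajc9, Dnajc10, Hspa1a, Hspa1b, Hspa4l, Hspb6 and Stip1). Higher on all 3 days were 4 genes, Dnajc11, Dnajc27, Dnajc28 and Hspe1, and lower on all 3 days was 1, Hsf4. Hspa4 and Dnaja1 were lower at days 3 and 6 and higher at day 9, and Dnajc2 was lower at day 3 and higher at day 9. The remaining 31 genes were called on 1 or 2 days in other combinations. The test of the difference between days is given below where it was called.

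Of the 3 heat shock factors, Hsf1 was called on no day, Hsf2 on 1 and Hsf4 on all 3. Hsf1, the main activator of the heat shock response, had 6.13, 6.3, 5.84 and 5.85 log2 CPM in corticosterone libraries and 5.97, 6.06, 5.97 and 6.06 in vehicle libraries at day 3. The groups overlapped, and its fold changes were 0.01 ± 0.08, -0.13 ± 0.08 and -0.05 ± 0.08 at days 3, 6 and 9 (log2 ± SE, n = 4 per group), none of them called. Hsf2, a partner of HSF1, was lower at day 3 (-0.16 ± 0.05, limma adjusted p = 0.0054), a call lost when only those 2 groups were fitted, and was not called at day 6 (-0.06) or day 9 (0.04). Hsf4, known for its part in lens development, was lower on all 3 days. Its day 6 libraries had 2.82, 2.69, 2.98 and 3.13 log2 CPM with corticosterone and 3.79, 3.51, 3.98 and 3.99 with vehicle. The groups did not overlap on any of the 3 days, and the fold changes were -0.31 ± 0.10, -0.92 ± 0.10 and -0.51 ± 0.10, with limma adjusted p of 0.00947, 1.33e-08 and 0.000232. The day 6 change differed from that at day 3 by -0.60 ± 0.14 (adjusted p = 0.00505). In vehicle culture Hsf4 was also the factor that rose, with 3.45, 3.57, 3.57 and 3.69 log2 CPM in vehicle libraries at day 3 and 1.86, 1.89, 2.09 and 1.99 at day 0, without overlap. That change was 1.61 ± 0.10 (adjusted p = 8.41e-14), followed by 1.86 ± 0.10 at day 6 and 1.94 ± 0.10 at day 9. Hsf1 was lower than at day 0 on the same days (-0.32 ± 0.08, -0.21 ± 0.08 and -0.25 ± 0.08, each called).

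The stress-inducible HSP70 genes Hspa1a and Hspa1b had lower levels with corticosterone at days 3 and 6. Hspa1a had 0.58, 0.83, 0.52 and 0.88 log2 CPM in corticosterone libraries and 2.57, 2.84, 2.63 and 2.92 in vehicle libraries at day 3. At day 6 it had 0.55, 0.94, 1.48 and 1.17 with corticosterone and 2.83, 2.46, 3.12 and 2.87 with vehicle. All treated libraries lay below all vehicle libraries on both days, and the log2 fold changes were -2.03 ± 0.17 (limma adjusted p = 1.02e-10) and -1.79 ± 0.17 (adjusted p = 1e-09). At day 9 the groups overlapped, with 2.66 to 2.86 log2 CPM after corticosterone and 2.70 to 3.15 after vehicle, and the value was -0.14 ± 0.17 (adjusted p = 0.565). Hspa1b, expressed at a higher level per length, fell by less: -0.42 ± 0.14 at day 3 (adjusted p = 0.0137) and -0.62 ± 0.14 at day 6 (adjusted p = 0.000548), with 0.31 ± 0.14 at day 9 (adjusted p = 0.103), where it was not called although the groups did not overlap, at 6.4 to 6.67 log2 CPM with corticosterone and 6.14 to 6.3 with vehicle. Its day 6 groups overlapped, at 5.48 to 5.94 log2 CPM with corticosterone and 5.87 to 6.74 with vehicle.

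These 2 genes are near-identical copies, and how reads were divided between them is uncertain: 63.8% of the 31-base words of Hspa1a transcripts also occur in Hspa1b. Their CPM were therefore also summed. The sum was 63.8 ± 6.9 CPM in corticosterone libraries and 89.7 ± 3.7 CPM in vehicle libraries at day 3 (SD, n = 4 each), and at day 6 it was 54.6 ± 8.5 CPM with corticosterone and 89.7 ± 24.0 CPM with vehicle. Fitted in place of the 2 genes, a choice made after the data were seen, the sum changed by -0.50 ± 0.14 at day 3 (limma adjusted p = 0.00377), -0.69 ± 0.14 at day 6 (adjusted p = 0.000145) and 0.27 ± 0.14 at day 9 (adjusted p = 0.149), and the day 9 change differed from the day 3 change by 0.77 ± 0.19 (adjusted p = 0.00255). Hspa1a made up 2.58 ± 0.37% of the sum with corticosterone and 7.49 ± 0.91% with vehicle at day 3. At day 6 the share was 3.82 ± 0.58% with corticosterone and 8.18 ± 1.30% with vehicle, and at day 9 it was 6.97 ± 0.22% with corticosterone and 9.3 ± 0.9% with vehicle. Hspa1l, a relative that is abundant in testis, was called higher at day 3 (0.41 ± 0.08, adjusted p = 0.00023), and the day 9 change differed from that at day 3 by -0.41 ± 0.12 (adjusted p = 0.00736). It lies head to head with Hspa1a on chromosome 17.

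**Figure D2:**
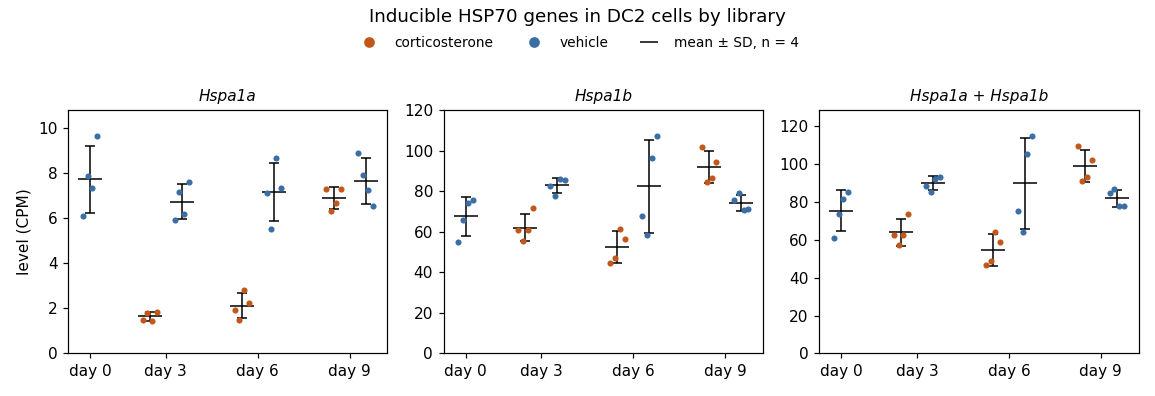
CPM of Hspa1a, of Hspa1b and of their sum in each library by day, linear axes from 0. Orange points are corticosterone, blue points vehicle, bars the mean and SD of 4 libraries. Hspa1a lies at 1.64 ± 0.20 CPM with corticosterone and 6.71 ± 0.78 CPM with vehicle at day 3, and its groups overlap at day 9, where those of Hspa1b and of the sum do not.

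The constitutive HSP70 Hspa8 was lower in vehicle culture than at day 0. Per kilobase of longest coding transcript, Hspa8 was the highest member in day 0 vehicle libraries, at 1143 ± 54 CPM per kb, followed by Hspa9 at 443.9 ± 7.6, Hspd1 at 368.8 ± 8.2, Hspe1 at 221.9 ± 7.3 and Stip1 at 147.2 ± 5.1 (SD, n = 4). These 5 were above 100 CPM per kb and 6 of the 69 were below 1. Hspa8 had 10.43, 10.54, 10.36 and 10.41 log2 CPM in vehicle libraries at day 3 and 11.43, 11.49, 11.41 and 11.33 at day 0. The groups did not overlap, and the change was -0.98 ± 0.06 (limma adjusted p = 3.89e-13), with -1.02 ± 0.06 at day 6 and -1.05 ± 0.06 at day 9. With corticosterone Hspa8 differed from vehicle by 0.05 ± 0.06, -0.01 ± 0.06 and 0.19 ± 0.06 at days 3, 6 and 9. With quantile normalization the day 3 value was -0.14 and called (adjusted p = 0.00795). The day 9 value was called (adjusted p = 0.0259) and lost its call without vehicle replicate 5 (0.17) or 6 (0.18) or corticosterone replicate 3 (0.19), 4 (0.19) or 6 (0.17). Of its 31-base words 71.6% occur in other genes, mostly in the processed pseudogene Gm15459, so its level is uncertain.

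The fall in vehicle culture covered many members. Against day 0, vehicle day 3 had 29 members lower and 18 higher, where 32.7% and 36.5% of all genes were called lower and higher, so 42.0% and 26.1% of the members compare with those. Vehicle day 6 had 31 lower and 14 higher (33.7% and 36.4% of all genes) and vehicle day 9 had 32 lower and 15 higher (34.6% and 35.9% of all genes). The member median was -0.17, -0.11 and -0.13, against 0.04, 0.03 and 0.02 over all genes. The summed level of the 69 was 7237 ± 116 CPM in vehicle libraries at day 3, 7542 ± 123 at day 6 and 7630 ± 105 at day 9, against 10756 ± 166 CPM at day 0 (SD, n = 4). With corticosterone it was 7466 ± 426, 7931 ± 139 and 8135 ± 77 CPM at days 3, 6 and 9. The sum weighs the highest members most. Hspa8 and Hspa9 together held 4089 ± 150 CPM of it at day 0 and 2294 ± 93 CPM in vehicle libraries at day 3. Time in culture, medium change and cell density were not separated in this design and cannot be told apart, and in bulk RNA fewer cells of a type and less RNA per cell cannot be told apart either.

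Beside Hspa8 and the chaperonin genes given below, 5 cytosolic cochaperones had large called falls against day 0. Hsph1, an HSP110 exchange factor, had 6.83, 6.87, 6.63 and 6.89 log2 CPM in vehicle libraries at day 3 and 7.86, 7.85, 7.99 and 7.82 at day 0 (-1.08 ± 0.06, limma adjusted p = 8.13e-15). Hspa4, another, changed by -0.90 ± 0.06, and Dnajc2, which works on nascent chains at the ribosome, by -1.30 ± 0.06. Ahsa1, the activator of the HSP90 ATPase, changed by -1.14 ± 0.06 and Stip1, which bridges HSP70 and HSP90, by -0.83 ± 0.05. None of these groups overlapped, and all 5 genes were also lower at days 6 and 9, where Hsph1 stood at -0.93 and -0.99 and Dnajc2 at -1.15 on both days. The relatives Hspa4l (0.03 ± 0.08) and Ahsa2 (-0.03) were not called at day 3 against day 0. Hspa2, an HSP70 of the male germ line, went the other way (0.64 ± 0.06 at day 3), as did Dnajc16 (0.42 ± 0.05), a J-domain protein of the endoplasmic reticulum. The germ line gene rows, 3 of 6 listed, summed to 24.0 to 26.8 CPM in vehicle libraries at day 3 and 16.2 to 18.3 CPM at day 0. Hspa2 and Hspa1l are themselves 2 of those 3 rows. The mesenchymal rows summed to 61.2 to 65.6 CPM in vehicle libraries at day 3 and 26.9 to 29.1 CPM at day 0, and Cd68 was at 27.6 to 28.8 CPM in vehicle libraries at day 3 and 87.1 to 108 CPM at day 9, against 6.76 to 8.30 CPM at day 0. Their part in the falls was not tested.

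Corticosterone changed these culture-responsive genes in different ways on different days. Hspa4 had 7.64, 7.75, 7.67 and 7.70 log2 CPM in corticosterone libraries and 7.95, 7.92, 8.06 and 7.82 in vehicle libraries at day 3 (-0.25 ± 0.06, limma adjusted p = 0.0011), and the groups did not overlap. At day 6 it was lower again (-0.17 ± 0.06, adjusted p = 0.0243), a call lost without vehicle replicate 5 (-0.14) or corticosterone replicate 1 (-0.14) or 3 (-0.13). At day 9 it was higher (0.19 ± 0.06, adjusted p = 0.0181), a call lost without vehicle replicate 3 (0.17) or 4 (0.15) or corticosterone replicate 6 (0.15). The day 9 change differed from the day 3 change by 0.44 ± 0.08 (adjusted p = 0.000166). Stip1 had 7.05, 7.30, 6.99 and 6.98 log2 CPM with corticosterone and 7.47, 7.51, 7.41 and 7.41 with vehicle at day 3 (-0.37 ± 0.05, adjusted p = 3.32e-06), was lower at day 6 (-0.33 ± 0.05) and stood at 0.05 ± 0.05 at day 9. Hspa4l, the third HSP110 relative, was lower at day 3 (-0.28 ± 0.08, lost with only those 2 groups fitted and -0.18 without corticosterone replicate 4) and day 6 (-0.43 ± 0.08, adjusted p = 6.04e-05).

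Hsph1 was called higher on the 2 recovery days and Ahsa1 at day 9. Hsph1 had 7.23, 7.32, 7.30 and 7.14 log2 CPM in corticosterone libraries and 6.94, 6.91, 6.91 and 7.04 in vehicle libraries at day 6 (0.30 ± 0.06, limma adjusted p = 0.000139), was higher at day 9 by 0.21 ± 0.06 (adjusted p = 0.00722) and stood at 0.08 ± 0.06 at day 3. The differences of its day 6 and day 9 changes from that at day 3 (0.22 ± 0.08 and 0.14 ± 0.08) were not called (adjusted p = 0.100 and 0.198). These are values against vehicle of the same day, and its treated level at day 6 stayed below that of day 0. Ahsa1 was called at day 9 (0.27 ± 0.06, adjusted p = 0.00207), and the difference of its day 9 change from that at day 3 was 0.20 ± 0.09 (adjusted p = 0.0924), not called. For Ahsa1 that difference was called without corticosterone day 3 replicate 4 (0.27, adjusted p = 0.00681). Ahsa2, its relative, was lower at days 3 and 6 (-0.41 ± 0.07 and -0.36 ± 0.07). Dnajc2 was lower at day 3 (-0.22 ± 0.06, lost with only those 2 groups fitted) and higher at day 9 (0.20 ± 0.06, adjusted p = 0.0194), and the day 9 call was lost without vehicle replicate 4 (0.18) or 6 (0.18) or corticosterone replicate 5 (0.18) or 6 (0.17).

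**Figure D3:**
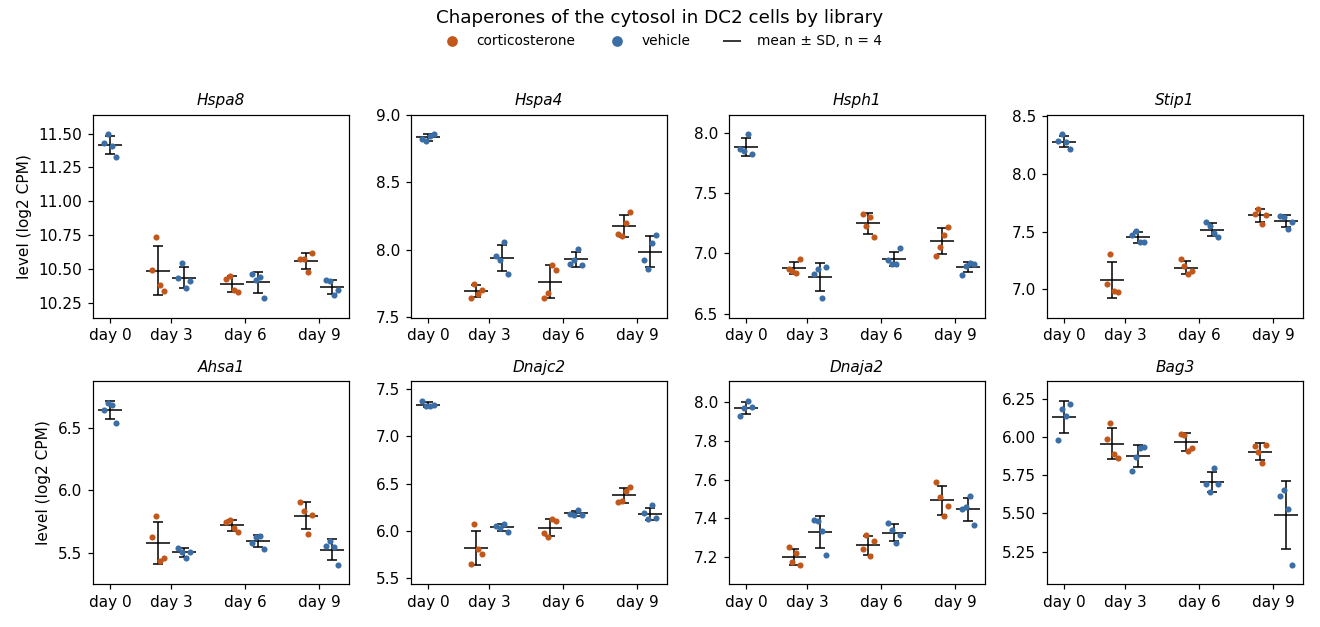
Levels (log2 CPM) of 8 chaperones of the cytosol in each library by day. Orange points are corticosterone, blue points vehicle, bars the mean and SD of 4 libraries. Hspa8, Hspa4, Hsph1, Stip1, Ahsa1 and Dnajc2 lie highest at day 0, Stip1 lies lower with corticosterone at days 3 and 6, and Bag3 lies higher with corticosterone at days 6 and 9.

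Of the 10 mitochondrial members, 8 were higher and 0 lower with corticosterone at day 3, 7 and 0 at day 6, and 4 and 0 at day 9, where 23.3% and 25.6%, 22.9% and 24.3%, and 14.1% and 14.4% of all genes were called higher and lower, with median log2 fold changes of 0.40, 0.31 and 0.18. Of the other 59, 14 were higher and 17 lower at day 3, with a median of -0.03. Without corticosterone day 3 replicate 4 the mitochondrial count at day 3 was 6 higher and 0 lower, with a median of 0.29, and that of the other 59 was 9 higher and 19 lower. Hspa9, the mitochondrial HSP70, had 10.22, 10.35, 10.21 and 10.17 log2 CPM in corticosterone libraries and 9.88, 9.84, 9.79 and 9.79 in vehicle libraries at day 3, and 10.74, 10.69, 10.71 and 10.64 with corticosterone and 10.21, 10.21, 10.25 and 10.19 with vehicle at day 6. The groups did not overlap, and the fold changes were 0.41 ± 0.04 (limma adjusted p = 4.39e-10) and 0.48 ± 0.04 (adjusted p = 2.17e-11). At day 9 it was at 0.08 ± 0.04 (adjusted p = 0.0872), and the day 9 change differed from that at day 3 by -0.33 ± 0.05 (adjusted p = 1.15e-05, but 0.00 with quantile normalization). Against day 0, Hspa9 in vehicle was at -0.58, -0.19 and -0.09 at days 3, 6 and 9, and these signs turned with quantile normalization (0.03, 0.22 and 0.08).

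Dnaja3, the J-domain partner of Hspa9 in the matrix, followed the same days. It had 6.64, 6.67, 6.55 and 6.54 log2 CPM in corticosterone libraries and 6.23, 6.26, 6.29 and 6.25 in vehicle libraries at day 3 (0.35 ± 0.04, limma adjusted p = 2.58e-08), rose by 0.40 ± 0.04 at day 6 and stood at -0.02 ± 0.04 at day 9, a change against day 3 of -0.36 ± 0.05 (adjusted p = 6.19e-06). The other J-domain members of the compartment were not alike. Dnajc11, of the inner membrane organizing complex, was higher on all 3 days (0.42 ± 0.07, 0.27 ± 0.07 and 0.28 ± 0.07), and Dnajc28 likewise (0.55 ± 0.09, 0.45 ± 0.09 and 0.29 ± 0.09), though its day 9 call was lost without vehicle replicate 3 (0.27) or corticosterone replicate 5 (0.27). Dnajc4 was higher at days 3 and 6 (0.39 ± 0.08 and 0.28 ± 0.08) and Dnajc30 at day 3 (0.40 ± 0.11, lost with only those 2 groups fitted). Dnajc15, a protein of the import motor, was higher at day 3 (0.42 ± 0.16), a call lost without corticosterone replicate 4 (0.22) or 5 (0.42) or vehicle replicate 3 (0.34) or 6 (0.38), and stood at 0.37 at day 6, where it was not called (adjusted p = 0.0603), but was with the replicate block (0.49) and without corticosterone replicate 1 (0.45). Dnajc19, its relative, was not called on any day (0.14, 0.03 and 0.10). Both were lower in vehicle libraries at day 3 than at day 0, Dnajc19 at -0.72 ± 0.10 and Dnajc15 at -0.45 ± 0.16. Dnajc11 averaged 5.99 log2 CPM in vehicle libraries at day 3 and 6.68 at day 0.

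The chaperonin genes Hspd1 and Hspe1 were higher at days 6 and 9. Hspd1 had 8.25, 8.41, 8.27 and 8.23 log2 CPM in corticosterone libraries and 8.29, 8.27, 8.25 and 8.18 in vehicle libraries at day 3, where the groups overlapped (0.04 ± 0.04). At day 9 it had 8.83, 8.89, 8.90 and 8.94 with corticosterone and 8.52, 8.50, 8.52 and 8.36 with vehicle, without overlap (0.41 ± 0.04, limma adjusted p = 2.52e-08), after 0.23 ± 0.04 at day 6, and the day 9 change differed from that at day 3 by 0.37 ± 0.06 (adjusted p = 1.44e-05). Hspe1 was higher by 0.34 ± 0.08 at day 6 and 0.44 ± 0.08 at day 9 (adjusted p = 0.00145 and 0.000241). The differences of these changes from that at day 3 (0.12 ± 0.12 and 0.22 ± 0.12) were not called. Without corticosterone day 3 replicate 4 both differences were called (0.26 and 0.36, adjusted p = 0.0086 and 6.85e-05). The day 3 call of Hspe1 (0.22 ± 0.08, adjusted p = 0.0332) rested on that library, at 7.04 log2 CPM, with the other 3 of its group at 6.43 to 6.51. The value was 0.07 without that library, and the call was also lost without vehicle replicate 3 (0.21), 4 (0.21) or 6 (0.20).

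Both genes fell in vehicle culture. Hspd1 averaged 8.25 ± 0.05 log2 CPM in vehicle libraries at day 3 and 9.80 ± 0.03 at day 0 (SD, n = 4 each), a change of -1.56 ± 0.04 (limma adjusted p = 1.02e-20), and Hspe1 changed by -1.03 ± 0.08. These genes share the divergent promoter printed above. Of their 31-base words 50.1% in Hspd1 and 48.1% in Hspe1 also occur in other genes.

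**Figure D4:**
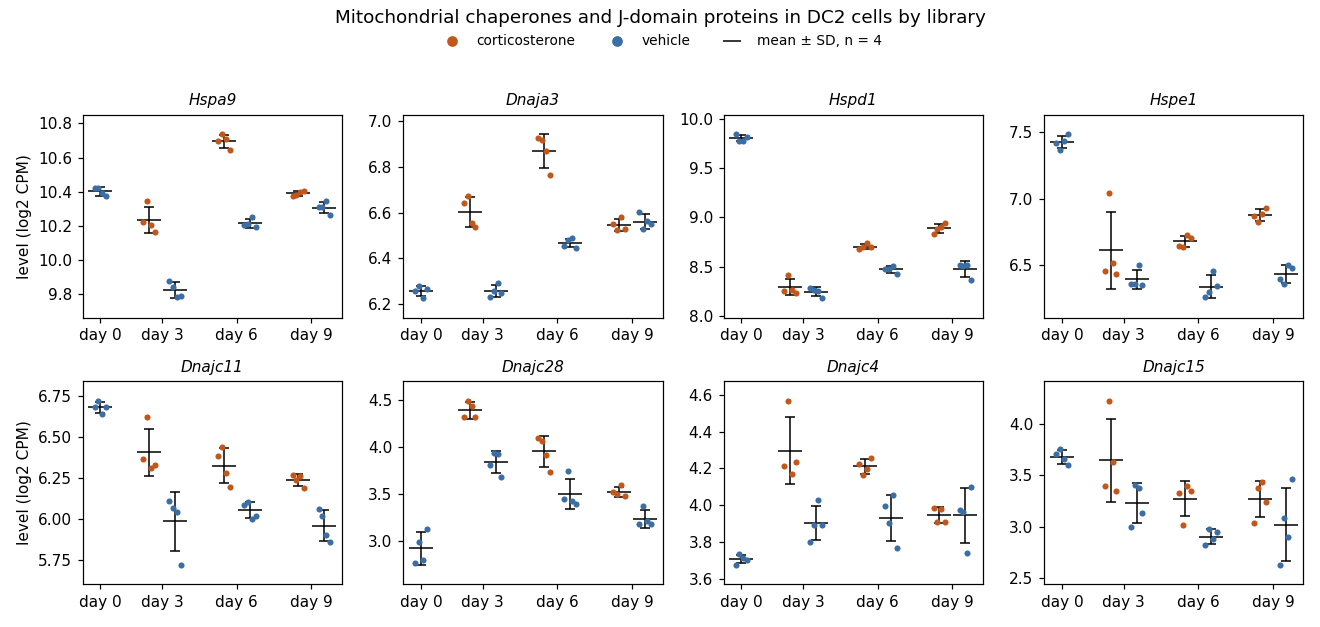
Levels (log2 CPM) of 8 of the 10 mitochondrial members in each library by day. Orange points are corticosterone, blue points vehicle, bars the mean and SD of 4 libraries. Hspa9 and Dnaja3 lie higher with corticosterone at days 3 and 6 and close to vehicle at day 9, Hspd1 and Hspe1 lie apart at day 9, and 1 treated library of day 3 is high in Hspe1, Dnajc4 and Dnajc15.

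The small heat shock proteins, which hold unfolded proteins without ATP, moved in both directions. Hspb6 had 3.4, 3.71, 3.51 and 3.4 log2 CPM in corticosterone libraries and 4.28, 4.46, 4.46 and 4.45 in vehicle libraries at day 3 (-0.91 ± 0.08, limma adjusted p = 4.01e-10). At day 6 it had 3.29 to 3.45 with corticosterone and 4.36 to 4.59 with vehicle (-1.13 ± 0.08, adjusted p = 5.38e-12), and at day 9 it was at -0.08 ± 0.08. The day 9 change differed from that at day 3 by 0.82 ± 0.11 (adjusted p = 1.62e-06). Hspb7, known from heart and skeletal muscle, was the opposite: 2.94, 2.12, 3.14 and 3.43 log2 CPM with corticosterone and 1.71, 1.79, 2.18 and 1.58 with vehicle at day 3 (1.09 ± 0.22, adjusted p = 0.000158, with corticosterone replicate 4 inside the vehicle range), 0.92 ± 0.22 at day 6 and -0.31 ± 0.22 at day 9. It rose by 2.38 ± 0.22 in vehicle culture by day 3, where day 0 libraries had -1.28 to -0.14 log2 CPM.

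Hspb1, the mouse HSP25, was higher at day 3 (0.40 ± 0.11, limma adjusted p = 0.00298, or 0.27 without corticosterone replicate 4) and day 6 (0.31 ± 0.11, adjusted p = 0.0187). The day 6 call was lost without vehicle replicate 3 (0.28) or 4 (0.25) or corticosterone replicate 5 (0.25). Of the 31-base words of Hspb1, 52.3% also occur in Hsp25-ps1, so its level is uncertain. Hspb8, which works with Bag3, was higher at day 6, at 7.42, 7.36, 7.37 and 7.05 log2 CPM in corticosterone libraries and 6.87, 6.84, 6.90 and 6.79 in vehicle libraries (0.45 ± 0.07, adjusted p = 5.12e-06), and stood at 0.14 ± 0.07 at day 3 and -0.11 ± 0.07 at day 9. Hspb2 was higher at day 3 (0.49 ± 0.20), a call lost without corticosterone replicate 1 (0.41) or 4 (0.38) or vehicle replicate 3 (0.42), 4 (0.50) or 6 (0.43), and was lower at day 9 (-0.71 ± 0.20, adjusted p = 0.0103). Its day 9 libraries had 0.22, 0.09, 0.37 and 0.42 log2 CPM with corticosterone and 1.02, 0.87, 1.06 and 0.97 with vehicle, without overlap, and vehicle libraries stood 1.23 ± 0.20, 1.08 ± 0.20 and 1.63 ± 0.20 above day 0 at days 3, 6 and 9.

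**Figure D5:**
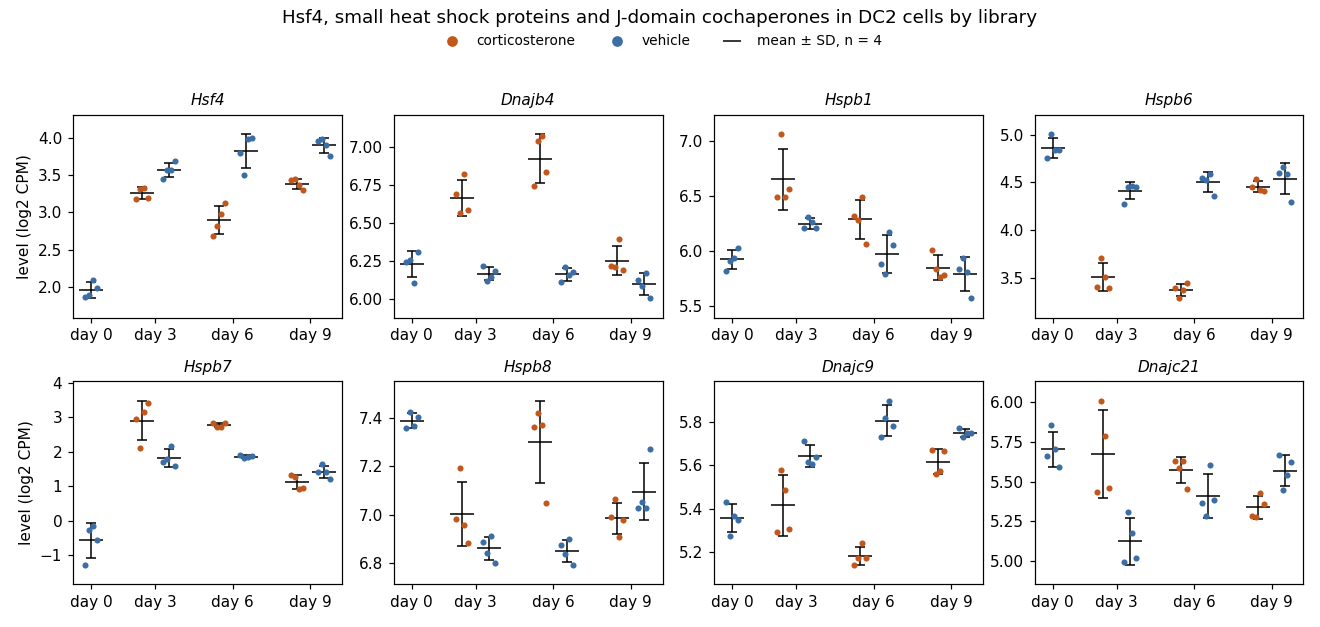
Levels (log2 CPM) of Hsf4, Dnajb4, 4 small heat shock proteins, Dnajc9 and Dnajc21 in each library by day. Orange points are corticosterone, blue points vehicle, bars the mean and SD of 4 libraries. Hspb6 lies lower and Hspb7 and Dnajb4 higher with corticosterone at days 3 and 6, and Hsf4 lies above its day 0 libraries in every later group.

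Among the J-domain proteins of the cytosol, Dnajb4 had the largest called rise at day 6. It had 7.04, 6.74, 7.08 and 6.84 log2 CPM in corticosterone libraries and 6.11, 6.21, 6.16 and 6.18 in vehicle libraries (0.76 ± 0.07, limma adjusted p = 4.61e-10), after 0.50 ± 0.07 at day 3 and before 0.16 ± 0.07 at day 9. Dnaja1, a class A partner of Hspa8 and of HSP90 clients, went down and then up. It had 7.82, 7.66, 7.83 and 7.87 log2 CPM with corticosterone and 8.13, 7.95, 8.14 and 8.0 with vehicle at day 3 (-0.26 ± 0.05, adjusted p = 0.000125), was lower at day 6 (-0.18 ± 0.05) and higher at day 9 (0.16 ± 0.05, adjusted p = 0.0162, or 0.15 and not called without vehicle replicate 3), with a difference between days 9 and 3 of 0.42 ± 0.07. Dnaja4, another class A protein, was higher at day 3, at 5.18, 5.18, 5.29 and 5.16 log2 CPM with corticosterone and 4.90, 4.86, 4.86 and 4.88 with vehicle (0.33 ± 0.05, adjusted p = 1.36e-06). It was higher at day 6 (0.37 ± 0.05) and stood at -0.11 ± 0.05 at day 9, a difference between days 9 and 3 of -0.43 ± 0.06 (adjusted p = 6.59e-06). Dnaja2 had a called fall at day 3 (-0.13 ± 0.04) that was lost without vehicle replicate 3 (-0.11) or 4 (-0.11), and a larger one in vehicle culture (-0.64 ± 0.04 at day 3 against day 0). Dnajb1, the main class B partner of HSP70 in the heat shock response, stood at -0.03 ± 0.06 at day 3 and was lower at day 6 (-0.29 ± 0.06) and day 9 (-0.34 ± 0.06), at 5.66, 5.57, 5.53 and 5.50 log2 CPM with corticosterone and 5.93, 5.88, 5.94 and 5.88 with vehicle on day 9. Without corticosterone day 3 replicate 4, Dnajb1 was called lower at day 3 too (-0.12, adjusted p = 0.0253).

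Dnajc9, a cochaperone of histones H3 and H4, was lower at day 3 (-0.23 ± 0.05) and at day 6. At day 6 it had 5.17, 5.14, 5.24 and 5.17 log2 CPM in corticosterone libraries and 5.73, 5.82, 5.89 and 5.78 in vehicle libraries (-0.62 ± 0.05, limma adjusted p = 3.91e-10), a change that differed from that at day 3 by -0.40 ± 0.08 (adjusted p = 0.00121). Dnajc21, involved in maturation of the large ribosomal subunit, was higher at day 3 (0.55 ± 0.10, adjusted p = 4.78e-05) and at -0.23 ± 0.10 at day 9, a difference of -0.78 ± 0.14 (adjusted p = 7.39e-05). Dnajc5, the cysteine string protein of secretory vesicles, was lower at day 3 (-0.42 ± 0.07) and day 6 (-0.30 ± 0.07). Dnajc12, a cochaperone of aromatic amino acid hydroxylases, had a called rise at day 3 (0.64 ± 0.26) that was lost without corticosterone replicate 1 (0.64) or 4 (0.49) or vehicle replicate 5 (0.57) or 6 (0.35). Dnajb2 was called higher at day 3 and lower at day 9 (0.21 ± 0.08 and -0.21 ± 0.08), the first lost without vehicle replicate 6 (0.16) or corticosterone replicate 4 (0.19) or 5 (0.20), the second without vehicle replicate 4 (-0.18), 5 (-0.23) or 6 (-0.20) or corticosterone replicate 5 (-0.18) or 6 (-0.14).

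Of the 9 members of the endoplasmic reticulum, 1 was higher and 3 were lower at day 3, 1 and 1 at day 6, and 2 and 0 at day 9, with the shares of all genes at 23.3% and 25.6%, 22.9% and 24.3%, and 14.1% and 14.4%. Without corticosterone replicate 4 the day 3 counts were 1 higher and 2 lower. Dnajc10, which reduces disulfide bonds of proteins to be degraded, had 7.44, 7.42, 7.45 and 7.63 log2 CPM in corticosterone libraries and 7.89, 7.94, 7.91 and 7.98 in vehicle libraries at day 6, without overlap. The change was -0.44 ± 0.08 (limma adjusted p = 3.59e-05), after -0.33 ± 0.08 at day 3, while vehicle culture left it at 0.01 against day 0 at day 3 (adjusted p = 0.931). Dnajc25 went the other way, at 4.87, 4.94, 4.82 and 4.64 log2 CPM with corticosterone and 4.43, 4.43, 4.43 and 4.42 with vehicle at day 6 (0.39 ± 0.09, adjusted p = 0.000561), after 0.35 ± 0.09 at day 3. Hspa13, an HSP70 of microsomes, was lower at day 3 (-0.40 ± 0.06), and Dnajb14, a membrane protein of the reticulum, had a called fall (-0.17 ± 0.06) that was lost without corticosterone replicate 4 (-0.10). Dnajb12, the relative of Dnajb14, and Dnajc18 were higher at day 9 (0.21 ± 0.05 and 0.17 ± 0.04), without overlap for either gene, and stood at 0.00 and 0.03 at day 3.

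The remaining calls were small or rested on few libraries. Dnajc27, a small GTPase with a J domain, was higher on all 3 days (0.17, 0.20 and 0.24, each ± 0.06), and the groups did not overlap on any of them. Its day 3 call was lost without vehicle replicate 4 (0.15) or corticosterone replicate 1 (0.15) or 6 (0.14), and its day 6 call without corticosterone replicate 1 (0.14). Dnajc17 was higher at days 3 and 6 (0.26 ± 0.10 and 0.28 ± 0.10), the first lost without vehicle replicate 4 (0.22) or 5 (0.24) or corticosterone replicate 4 (0.17), the second without corticosterone replicate 3 (0.25). Of the 31-base words of Dnajc17, 33.3% also occur in Gm6257. Dnajc7, which binds HSP70 and HSP90 through TPR repeats, had a called rise at day 3 (0.30 ± 0.11) that was lost without vehicle replicate 3 (0.28) or 5 (0.26) or corticosterone replicate 4 (0.17). Dnajc8, a partner of splicing factors, was lower at day 6 (-0.14 ± 0.04, adjusted p = 0.0109), without overlap. Hspa12a was called higher at day 9 (0.43 ± 0.16), lost at 0.34 to 0.43 without any 1 of vehicle replicates 4 to 6 and corticosterone replicates 3 to 5. Hspa14, a partner of Dnajc2 at the ribosome, was called lower (-0.15 ± 0.05), lost at -0.15 to -0.09 without any 1 of vehicle replicates 5 and 6 and corticosterone replicates 3 to 6. Hspa2 was lower at day 6 (-0.20 ± 0.06), lost without vehicle replicate 5 (-0.17) or corticosterone replicate 1 (-0.16).

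Dnajc22 was among the lowest members and spread widely. Its day 6 libraries had -1.85, -0.57, -1.51 and -1.61 log2 CPM with corticosterone and -0.96, -0.43, -0.48 and 1.62 with vehicle, so that 1 vehicle library lay far above the rest and the groups overlapped. The value was -1.32 ± 0.55 (limma adjusted p = 0.0488), and it was not called with the replicate block (-1.11), without vehicle replicate 4 (-1.44) or 6 (-0.76) or without corticosterone replicate 1 (-1.16), 5 (-1.28) or 6 (-1.24). Against day 0 its vehicle libraries were higher at day 9 (2.28 ± 0.55, adjusted p = 0.000618), at 0.39, 0.19, 0.27 and 0.56 log2 CPM with -1.30, -1.51, -1.94 and -2.94 at day 0, without overlap.

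Of the 6 BAG genes, none was called at day 3. Bag3, which pairs with Hspb8 and Hspa8 in selective autophagy, had 5.94, 5.90, 5.83 and 5.95 log2 CPM in corticosterone libraries and 5.62, 5.65, 5.53 and 5.16 in vehicle libraries at day 9, without overlap (0.42 ± 0.08, limma adjusted p = 0.000191), after 0.26 ± 0.08 at day 6. In vehicle culture its level against day 0 was -0.25, -0.42 and -0.64 at days 3, 6 and 9, each called. Bag1 was higher at day 6 (0.35 ± 0.11, adjusted p = 0.0114), Bag6, a scaffold for membrane and misfolded proteins, was lower at day 6 (-0.21 ± 0.07, lost without vehicle replicate 5 at -0.17 or corticosterone replicate 5 at -0.15), and Bag5 was lower at day 9 (-0.16 ± 0.06, lost at -0.16 to -0.14 without any 1 of vehicle replicates 3, 5 and 6 and corticosterone replicates 3 to 5). Bag2, an inhibitor of the ubiquitin ligase CHIP, and Bag4 were not called on any day, with Bag2 between -0.11 and 0.05 and Bag4 between -0.12 and 0.09. Of the genes matched by name alone, Hsf2bp was at low level and higher at day 3 (1.73 ± 0.55, adjusted p = 0.0105, with the groups overlapping), and Hspb11 was lower at day 9 (-0.29 ± 0.11, lost at -0.30 to -0.21 without any 1 of vehicle replicates 3 and 6 and corticosterone replicates 3 to 6).

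The change of the corticosterone effect between days was also tested. Between days 3 and 6 it differed for 6 members, 3 upward (Hspa13, Hspb8 and Hspd1) and 3 downward (Hsf4, Dnajc9 and Dnajb1), where 4.21% and 4.9% of all genes were called upward and downward, and of these 6 the calls of Hsf4 and Dnajc9 were kept in every alternative run. The upward count was 1 with the replicate block and 0 with quantile normalization or with only the groups compared in the fit. It was 0 or 1 without any 1 of vehicle replicates 3, 4 and 6 or corticosterone replicates 1 and 6 of day 3, vehicle replicates 3 to 6 of day 6 or corticosterone replicates 1, 5 and 6 of day 6, and the downward count was 5 without corticosterone replicate 6 of day 3. Between days 3 and 9 it differed for 18 upward and 15 downward, against 19.8% and 18.5% of all genes. The upward ones included Hspa1a (1.89 ± 0.23), Hspb6 (0.82 ± 0.11), Hspa1b, Hspa4, Stip1, Dnaja1 and Dnajc5, which had been lower at day 3. The downward ones included Hspb7 (-1.40 ± 0.31), Dnajc21, Dnaja4, Dnaja3, Hspa9 and Dnajb4, which had been higher at day 3.

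Other chaperone genes outside the 69 give the surroundings, from lists chosen with earlier results of these data known. Their counts stand against 23.3% and 25.6% of all genes called higher and lower at day 3, 22.9% and 24.3% at day 6, and 14.1% and 14.4% at day 9. Among 18 HSP90 chaperones and cochaperones, 4 were higher and 6 lower at day 3, with a median of -0.04, 5 and 7 at day 6, and 6 and 0 at day 9. The list includes Fkbp5, the hormone marker above, which has its largest rise at day 3 (3.05). Hsp90ab1, the main cytosolic HSP90, was lower at day 3 (-0.43 ± 0.05) and day 6 (-0.42 ± 0.05) and higher at day 9 (0.17 ± 0.05). Among 13 genes of the cytosolic chaperonin and prefoldin, 1 was higher and 4 lower at day 3, 0 and 3 at day 6, and 7 and 0 at day 9. In vehicle culture 12 of the 13 were lower at day 3 than at day 0, where 32.7% of all genes were lower, with a median of -1.02, for example Cct8 at -1.44 ± 0.04 and Tcp1 at -1.14 ± 0.05. Among 14 mitochondrial chaperones, proteases and import partners, 7 were higher and 2 lower at day 3, 8 and 1 at day 6, and 2 and 2 at day 9. Trap1, the mitochondrial HSP90, was higher by 0.45 ± 0.04 at day 3 and Afg3l2, a protease of the inner membrane, by 0.53 ± 0.04. Among 8 other HSP70 partners and chaperones, 2 were higher and 2 lower at day 3, 4 and 0 at day 6, and 3 and 0 at day 9. The called genes with the smallest p at day 3 were Hspbap1 (0.30 ± 0.05) and Serpinh1 (-0.23 ± 0.04), the collagen chaperone.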

How the data were processed

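Messenger RNA libraries of DC2 cells (4 in each of 7 groups) were made with a stranded kit, per the labels' protocols. The deposited table holds log2 CPM, with a value in each library for 13128 genes, used as the authors deposited them. Kallisto, edgeR 3.40.1, limma 3.54.0 and mm10 are named in the submitters' processing notes, with no role or order. The counts and depth are not given in the sources used here, so no counting interval is given. A row without a symbol (0.0267% to 0.0698% of each library's CPM) was left out, and 0 columns of per-sample values were left unused.

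A linear model over all 28 libraries was fitted to the deposited log2 values with limma 3.58.1 in R 4.3.3 (lmFit, and eBayes with a trend of variance on mean level), with 7 group means, 21 residual degrees of freedom, two-sided tests and Benjamini-Hochberg adjustment over all genes. A low-value filter (4 or more libraries above 0 on the log2 scale) removed 0 genes. Scripts were tested on simulated data. Corticosterone and vehicle libraries of day 6 share 3 replicate numbers in the labels' titles, which do not say what a number marks. The deviations of same-numbered libraries from their group means correlated at 0.102 to 0.209. The fit reported here has no pairing, and a replicate block was run only as an alternative. At day 6 the replicate block lost 1 call, Dnajc22, and gained 1, Dnajc15.

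The members and lists were chosen with earlier results of these data known. Named genes are a fixed set of chaperones plus the members with the largest called changes in each comparison and a mean of at least 1 log2 CPM. Other members are described too, after their values were seen, so that all are accounted for. Alternatives were a stricter filter (above 2), no filter, log2(CPM + 1), median centring, quantile normalization, the replicate block, fits of the compared groups only, and leaving out each library. Shared 31-base words and lengths come from GENCODE transcripts and promoter windows from RefSeq.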

Additional observations from a re-analysis of the deposited data

Results flagged for a closer look

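A single library lay far from the other 3 of its group (its gap over the range of the group above Dixon's critical value for 4) in 26 of 483 combinations of a gene and a group, and chance alone flags about 1 in 20. Corticosterone day 3 replicate 4, the library that stood apart in the distances above, was the highest for Hspe1 (7.04 log2 CPM), Hspb1 (7.06), Bag5 (5.21) and Dnajb5 (4.56), and replicate 6 of that group was the lowest for Hspa12b (1.25). Corticosterone day 6 replicate 6 was the lowest for Hspb8 (7.05) and the highest for Dnajc10 (7.63), and at day 9 corticosterone replicate 5 was the highest for Dnajb4 (6.4), replicate 4 the highest for Hspa14 (6.27) and replicate 6 the lowest for Bag1 (6.11) and the highest for Dnajc30 (3.55). Among vehicle libraries of day 9, replicate 6 was the lowest for Hspd1 (8.36) and the highest for Hspb8 (7.27), Hspa13 (6.6) and Dnajc19 (4.99), replicate 5 the highest for Ahsa2 (5.84) and replicate 4 the highest for Hspa12b (1.91). Among those of day 6, replicate 5 was the highest for Bag1 (6.13) and Dnajc2 (6.23). Among those of day 3, replicate 5 was the highest for Hspe1 (6.5) and the lowest for Dnajc14 (7.54), replicate 3 the lowest for Hspb6 (4.28) and replicate 6 the lowest for Dnajc11 (5.72). At day 0, replicate 5 was the highest for Ahsa2 (5.74), replicate 3 the highest for Dnajb6 (7.89) and replicate 4 the lowest for Dnajc14 (7.27).

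The corticosterone effect at day 6 differed from that at day 3 for Hsf4 (-0.60 on the log2 scale), Dnajc9 (-0.40), Dnajb1 (-0.26), Hspd1 (0.19), Hspa13 (0.30) and Hspb8 (0.31). The effect at day 9 was higher than that at day 3 for Hspa1a (1.89), Hspb6 (0.82), Hspa1b (0.73), Hspa12a (0.73), Hspa4 (0.44), Dnaja1 (0.42), Stip1 (0.42), Dnajc2 (0.41), Dnajc5 (0.41), Hspa13 (0.37), Hspd1 (0.37), Ahsa2 (0.33), Bag3 (0.33), Dnajb14 (0.23), Dnajb12 (0.21), Hsf2 (0.20), Dnaja2 (0.18) and Dnajc18 (0.14). It was lower for Hsf2bp (-2.51), Hspb7 (-1.40), Hspb2 (-1.20), Dnajc21 (-0.78), Hspb11 (-0.53), Dnaja4 (-0.43), Dnajb2 (-0.42), Hspa1l (-0.41), Dnajc4 (-0.39), Dnaja3 (-0.36), Dnajb4 (-0.34), Hspa9 (-0.33), Dnajb1 (-0.31), Hspb8 (-0.25) and Bag2 (-0.15). Each of these passed an adjusted p under 0.05 in limma's test of the difference.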

How the results depend on the processing

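For the 69 genes over 8 comparisons, 201 of 274 calls were kept in every alternative run and 70 were lost in at least 1, the other 3 (Hspa9 in 3 comparisons) turned sign with quantile normalization alone, while 65 values not called were called in at least 1. Quantile normalization turned the sign of Hspa8 at day 3 (-0.14, adjusted p = 0.00795), of Hspa9 in vehicle against day 0 (0.0265 at day 3, 0.22 at day 6, 0.0776 at day 9) and in the difference between the day 9 and day 3 effects (0.000356), of Dnaja1 in vehicle against day 0 (0.19 at day 3, 0.0609 at day 6), of Bag6 there at day 3 (0.12) and of Hspa1l there at day 3 (-0.13), and the cause was not tested. With only the groups compared, the higher count at day 3 was 13 instead of 22, and the cause was not tested. Leaving out 1 library gave 15 to 24 higher and 16 to 19 lower at day 3, 17 to 18 and 14 to 18 at day 6, and 12 to 13 and 4 to 8 at day 9. Against day 0, vehicle gave 16 to 18 higher and 27 to 30 lower at day 3, 13 to 15 and 30 to 31 at day 6, and 14 to 16 and 27 to 31 at day 9. The difference between the day 6 and day 3 effects gave 0 to 3 upward and 2 to 5 downward, and that between days 9 and 3 gave 15 to 22 and 13 to 15. Upward calls between days 6 and 3 were 0 with quantile normalization, 0 with only the groups compared and 1 with the replicate block. The block gave 37 calls at day 3 (36 shared with the fit without it) and 22 at day 9 (21 shared), and 47, 46 and 47 in vehicle against day 0. At days 3 and 9 not every pair of same-numbered libraries correlated above 0.1. The depth behind the values is unknown, so counting error could not be separated from the spread.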
